A study of Mus musculus with 14 samples.

Results

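Semaphorins, plexins, neuropilins, Slits, Robos and chimaerins form a set of cell guidance genes, and their expression was described here in granulosa cells (GCs), the somatic cells that line the antral follicle and feed the oocyte. The genes were chosen by symbol: every protein-coding gene whose symbol began with Sema, Plxn, Robo or Slit and a number or plexin letter, together with Nrp1, Nrp2, Chn1 and Chn2. This gave 40 genes of 55414 in the count table, namely 20 semaphorins, 9 plexins, 2 neuropilins, 4 Robo receptors, 3 Slits and 2 chimaerins. Another 3 symbols that met the pattern belonged to non-coding RNAs on the opposite strand of Plxna4 and were left out. The family was selected on measured values, because Plxna2 and Chn2 were seen to be lower in ob/ob than in CT ob, so the ob/ob against CT ob values below are a description with no test, and those 2 genes have no test in any comparison that used these libraries.

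GCs were released from punctured antral follicles of female mice aged 12 weeks, and the oocytes were stripped off mechanically. The db/db group (4 libraries) carried the Lepr db mutation in the B6.BKS(D)-Leprdb/J strain, which removes the long form of the leptin receptor from the whole body, and CT db (4 libraries) were its lean littermates. The ob/ob group (3 libraries) carried the Lep ob mutation in the B6.Cg-Lepob/J strain, which removes leptin, and CT ob (3 libraries) were the lean littermates of that strain. All mice ate the same chow diet. The labels call both control groups wild type while their columns in the table are named het, so whether they carried 1 mutant allele was not settled and they are called lean controls here. The db and ob models came from separate strains, so strain and model cannot be told apart in any comparison between them. Libraries are numbered by their order in the table within each group, and whether each came from a separate animal is not given in the sources used here, so p-values measure the spread between these libraries.

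The pathway works as follows. Semaphorins are secreted (class 3) or membrane-bound cues that bind plexins, whose cytoplasmic part inactivates small Ras-type GTPases and loosens adhesion, and class 3 semaphorins mostly need a neuropilin as co-receptor. Slits are large secreted cues that bind Robo receptors and repel moving cells and growing axons. Chimaerins are diacylglycerol-binding proteins that switch off the GTPase Rac and can act below plexin and Eph receptors. In the ovary, members of both systems are known from follicles and from the vessels of the corpus luteum.

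Counts per library summed to between 2204686 and 8367593. Totals were lower in every db/db library (2204686 to 3059777) than in any CT db library (3624237 to 4840714). In the ob model they were higher in every ob/ob library (5306632 to 8367593) than in any CT ob library (3664219 to 4847166). Depth and genotype thus went together in each model, and the part of depth in the level differences was not tested. All levels here are in CPM (counts of a gene per 1000000 counts of the library) scaled by the trimmed mean of M values (TMM). On this scale 3 counts corresponded to between 0.369 and 1.30 CPM. Pairs of libraries within a group correlated at r between 0.902 and 0.968 on log2(CPM + 1) over 12586 genes, and at most 3.85% of these genes had equal counts in a pair. The granulosa marker list (14 genes, none at 0 in any library) summed to 12300 to 17400 CPM in CT ob and 19400 to 30300 CPM in the other 11 libraries. Gja1 alone was at 5560 to 6930 CPM in CT ob and 10300 to 20800 CPM elsewhere. Foxl2, Amh, Amhr2 and Wt1 had their highest group median in CT ob, whereas all the others except Hsd17b1 had their lowest there. Endothelial markers (9 genes) summed to 24.8 to 51.8 CPM in CT ob and 5.07 to 16.4 CPM elsewhere, and oocyte markers (10 genes) to 68.3 to 1080 CPM in CT ob, 137 to 722 in ob/ob, 2.81 to 252 in CT db and 5.54 to 65.4 in db/db. Theca markers reached 370 CPM, luteal markers 549 CPM, stroma and mural markers 147 CPM, surface epithelium markers 34.1 CPM and macrophage and leukocyte markers 29.0 CPM in their highest library. The libraries pool many cells, so fewer cells of a type and less RNA per cell cannot be told apart.

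The promoters of 4 genes are shown because Plxna2 and Chn2 carried the difference that led to the family, Sema5a was its most abundant member in CPM, and Plxnb2 was its most abundant plexin. Each line gives the 250 bases before the first RefSeq start of the gene on the GRCm38.p6 assembly, 5′ to 3′, in lower case, with capitals for matches to the motifs searched.
Plxna2, chr1:194619579-194619828, plus strand: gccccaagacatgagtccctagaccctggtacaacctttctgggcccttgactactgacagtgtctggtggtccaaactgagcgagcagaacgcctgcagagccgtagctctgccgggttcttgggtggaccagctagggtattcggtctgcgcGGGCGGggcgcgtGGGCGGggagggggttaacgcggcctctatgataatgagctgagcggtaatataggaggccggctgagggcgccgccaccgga
Chn2, chr6:54039682-54039931, plus strand: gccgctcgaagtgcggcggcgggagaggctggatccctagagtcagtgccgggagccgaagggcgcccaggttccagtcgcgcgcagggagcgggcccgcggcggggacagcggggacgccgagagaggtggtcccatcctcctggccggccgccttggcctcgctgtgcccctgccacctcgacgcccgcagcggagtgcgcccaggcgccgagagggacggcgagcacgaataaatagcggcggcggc
Sema5a, chr15:32244563-32244812, plus strand: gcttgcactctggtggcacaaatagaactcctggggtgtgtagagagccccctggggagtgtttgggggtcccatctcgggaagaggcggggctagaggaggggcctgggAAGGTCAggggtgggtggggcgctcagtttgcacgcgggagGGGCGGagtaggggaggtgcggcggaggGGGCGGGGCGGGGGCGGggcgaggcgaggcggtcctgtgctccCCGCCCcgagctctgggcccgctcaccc
Plxnb2, chr15:89180789-89181038, minus strand: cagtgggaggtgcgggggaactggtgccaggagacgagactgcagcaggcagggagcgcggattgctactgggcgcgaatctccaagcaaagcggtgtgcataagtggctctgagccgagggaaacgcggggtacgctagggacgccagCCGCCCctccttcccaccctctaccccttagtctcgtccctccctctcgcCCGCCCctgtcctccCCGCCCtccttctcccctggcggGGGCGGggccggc
The motifs were the GC box GGGCGG, the TATA box TATAAA, the NR5A site AAGGTCA, the forkhead site TGTTTAC, the GATA site AGATAA and the cyclic AMP response element TGACGTCA, each searched on both strands. The window of Plxna2 held 2 GC boxes, that of Plxnb2 held 4, that of Sema5a held 5 GC boxes, some of them overlapping, and 1 NR5A site, and that of Chn2 held none of the 6 motifs. CG dinucleotides numbered 18 in the Plxna2 window, 34 in that of Chn2, 17 in that of Sema5a and 20 in that of Plxnb2, against a median of 6 over all 32851 windows in the table. Windows were found for 34 of the 40 genes (51 windows in all), and a GC box was present in 31 of the 51 windows (60.8%) and in 32.7% of all windows. An NR5A site was present in 3 windows of these genes (5.88%, against 4.08% of all windows), a GATA site in 2 (3.92%, against 9.99%), a TATA box in 1 (1.96%, against 12.4%) and neither the forkhead site (3.17% of all windows) nor the cyclic AMP response element (1.55%) in any. Which start is used in GCs was not measured. Gene positions given below are on GRCm39, and no coordinate was converted between the assemblies.

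Semaphorins were the most abundant group of the family in GCs, and Sema5a alone held 26.5% of the CPM summed over all 40 genes. Sema7a, a membrane-anchored semaphorin that binds plexin C1 and integrins, had the highest level per length at 70.1 CPM per kb of exon, the mean of the 4 group means. It was followed by Plxnb2, a receptor of class 4 semaphorins, at 29.5 CPM per kb, Sema5a, a membrane semaphorin with thrombospondin repeats, at 23.4, Sema3g at 21.9, Sema3c at 21.6 and Plxnc1 at 19.2. The ranges of the 4 group means of the 5 genes from Plxnb2 to Plxnc1 overlapped on the CPM per kb scale, so their order differed between groups, as the plot of levels shows. The order also depended on the length used. Per kb of the canonical transcript, a length chosen after seeing the data, Sema5a (44.1 CPM per kb) lay above Plxnb2 (36.0). Chn2 was seventh at 8.86 CPM per kb, ahead of Sema4b (5.47), Plxna2 (4.22) and Sema4d (3.86), whereas per kb of the canonical transcript Sema4d (11) lay above Sema4b (9.50) and Plxna2 (6.56). At the other end, Sema4f (0.0122), Robo3 (0.0126), Sema3f (0.0245), Slit2 (0.0352), Sema5b (0.0368), Plxnb3 (0.0742) and Sema4g (0.0894) were below 0.1 CPM per kb of exon, of which Slit2 (0.114) and Sema4g (0.183) were above it per kb of the canonical transcript.

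**Figure D1:**
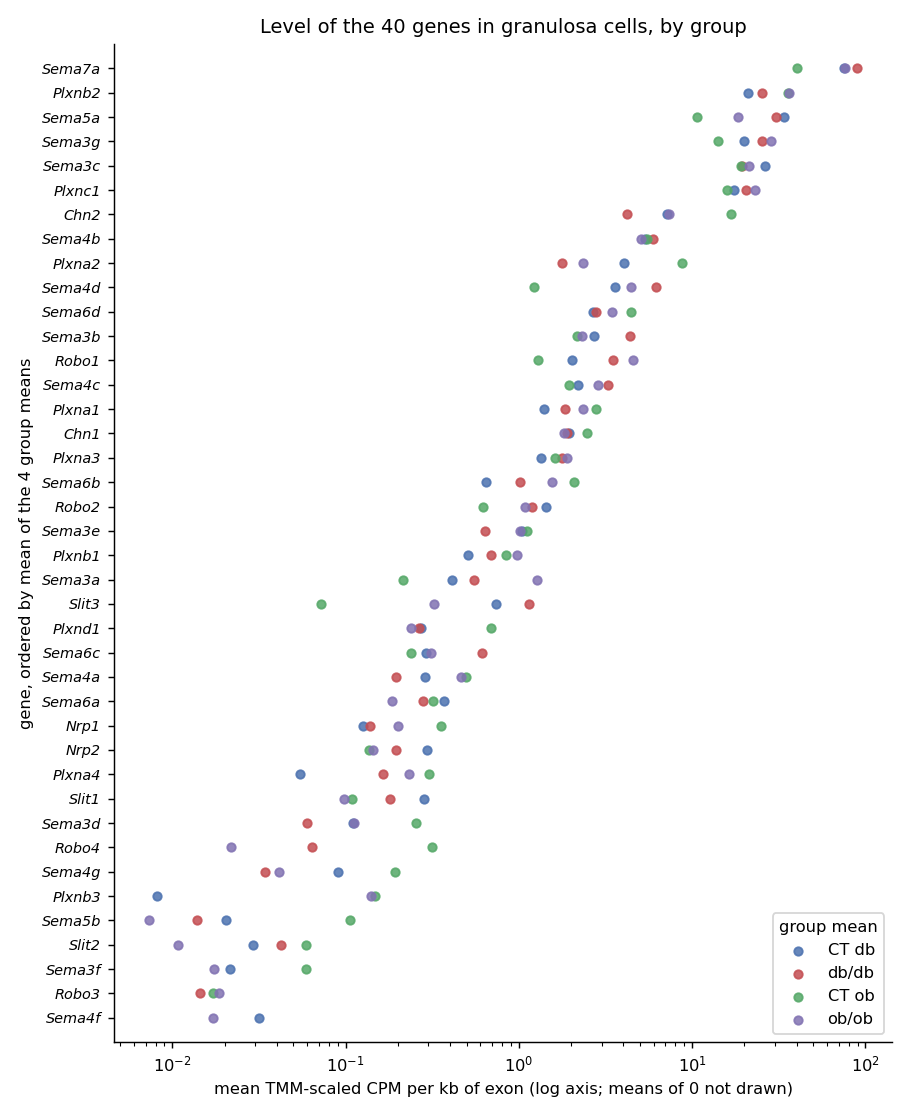
Mean TMM-scaled CPM per kb of exon (log axis) of each of the 40 genes in CT db, db/db, CT ob and ob/ob, ordered by the mean of the 4 group means; each point is 1 group mean and means of 0 are not drawn. Sema7a stands highest at 70.1, 6 genes lie above 19, and the lowest genes lie near 0.01.

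At a floor of 3 counts, 25 of the 40 genes were detected in all 14 libraries and 15 in some of them. Sema3f, Sema4f and Robo3 reached that floor in 1 library each, with highest counts of 4, 3 and 3. Robo4, a Robo receptor known from endothelium, reached it in 2 libraries, and its 18 counts in CT ob library 2 were its highest value. Within families, 1 gene often held most of the CPM: Sema5a held 99.9% of class 5, Plxnb2 95.9% of the B plexins, Chn2 76.9% of the chimaerins, Slit3 74.9% of the Slits, Robo1 65.5% of the Robo receptors and Plxna2 59.5% of the A plexins. Both neuropilins were low. Nrp1, a co-receptor for class 3 semaphorins and VEGF, was at most 10.5 CPM and Nrp2 at most 9.83 CPM, while the secreted cues Sema3c and Sema3g reached 342 and 230 CPM.

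Plxna2, a receptor for class 3 and class 6 semaphorins, had a lower mean level in the mutants than in the controls of both models. On GRCm39 the gene lies at chr1:194300526-194499177 on the plus strand, and 16.8% of its exon bases are shared with genes on the opposite strand. Whether the counting used strand is not given in the sources used here, so reads of such genes cannot be told apart. Plxna2 levels were 184, 145 and 121 CPM in CT ob and 56.8, 26.6 and 37.7 CPM in ob/ob. The 3 ob/ob libraries lay below all 3 CT ob libraries, and the log2 fold change was -1.90 (SE 0.303, 3.74-fold lower). In the db model the levels were 102, 89.2, 32.4 and 54.6 CPM in CT db and 27.3, 28.4, 21.2 and 44.7 CPM in db/db. The fitted level was 2.28-fold lower in db/db, but db/db library 4 exceeded CT db library 3, so the groups overlapped, and the difference did not pass the test (log2 fold change -1.19, SE 0.337, edgeR adjusted p = 0.457, DESeq2 adjusted p = 0.0892).

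Chn2 encodes β-chimaerin, which acts on Rac below neuropilin 2 and its plexin partners. It lies at chr6:54016483-54278796 on the plus strand of GRCm39, 24.9 Mb from Lep, the gene mutated in ob/ob mice, and 10.3% of its exon bases are shared with genes on the opposite strand. Among the family genes on chromosome 6, Plxna4 lies nearest to Lep, at 3.05 Mb. Chn2 levels were 124, 97.9 and 77.8 CPM in CT ob and 44.2, 43.6 and 43.8 CPM in ob/ob. The ob/ob values were nearly equal and lay below every CT ob value, a 2.29-fold difference (log2 fold change -1.19, SE 0.206). In the db model they were 64.5, 33.9, 41.5 and 30.8 CPM in CT db and 36.7, 19.8, 29.4 and 14.4 CPM in db/db. Here db/db library 1 lay above 2 of the CT db libraries, and the 1.71-fold lower level did not pass the test (log2 fold change -0.78, SE 0.307, edgeR adjusted p = 0.597).

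**Figure D2:**
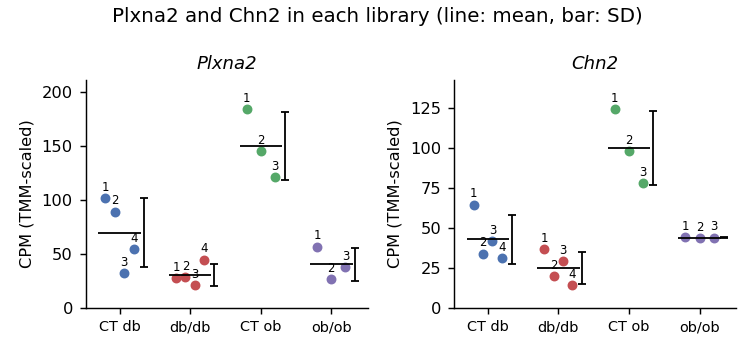
TMM-scaled CPM of Plxna2 and Chn2 in each library of CT db, db/db, CT ob and ob/ob, with the library number beside each point, the group mean as a line and the SD as a bar. The 3 CT ob libraries are the highest of all 14 for both genes, at 121 to 184 CPM for Plxna2 and 77.8 to 124 CPM for Chn2.

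CT ob had the highest level of both genes among the 4 groups, which the selection itself favours. The genes were chosen because ob/ob lay below CT ob, so high CT ob values are no independent result. Plxna2 averaged 150.0 ± 31.6 CPM (SD, n = 3) in CT ob, 69.7 ± 32.0 (n = 4) in CT db, 40.3 ± 15.3 (n = 3) in ob/ob and 30.4 ± 10 (n = 4) in db/db. Chn2 averaged 100.0 ± 23.2, 42.7 ± 15.2, 43.9 ± 0.282 and 25.1 ± 9.93 CPM in the same order, so its level in ob/ob was close to that of CT db. CT ob was 2.16-fold above CT db for Plxna2 (log2 fold change 1.11, SE 0.345) and 2.36-fold above it for Chn2 (1.24, SE 0.284). The CT ob and CT db libraries overlapped for neither gene (background 9.80% of all genes wholly higher in CT ob), and nothing is read from this. The CT ob libraries also stood apart in some granulosa markers, of which Wt1 and Fshr were picked here after their values were seen. Fst, Esr2 and Gja1 were also wholly lower in CT ob than in the other libraries, and the remaining markers of the list overlapped. Wt1, a transcription factor of GCs in small follicles, stood at 265, 246 and 114 CPM in CT ob, 93.7, 78.0, 24.2 and 54.9 CPM in CT db, 95.1, 10.8, 23.4 and 43.4 CPM in db/db and 90.3, 11.1 and 55 CPM in ob/ob. The FSH receptor gene Fshr was at 36.4, 120 and 90.8 CPM in CT ob and at 134 to 332 CPM in the other 11 libraries. The part of these markers in the Plxna2 and Chn2 values was not tested.

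In the db model no other gene of the family passed the test either. edgeR called 0 of the 25 genes tested at an adjusted p of 0.05 (background 0.00884% of 11317 genes, the single gene being the luteal marker Sfrp4), and DESeq2 also called 0 (background 0.389%). At an unadjusted p under 0.05 there were 5 of 25, against 7.59% of all genes, namely Plxna2, Sema6c, Sema4d, Chn2 and Plxna1. No family gene had db/db and CT db libraries that did not overlap (background 2.28% lower and 1.85% higher in db/db). The median log2 fold change was 0.26 over the 25 genes and 0.01 over all genes, and 17 of the 25 values were above 0, against 51.6% of all genes. The other 15 genes were too low to enter the fit.

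The ligands among these were Sema6c and Sema4d. Sema6c, a membrane-bound class 6 semaphorin, was at 2.53, 2.56, 2.47 and 4.91 CPM in CT db and 10.2, 3.44, 6.93 and 5.62 CPM in db/db. Only CT db library 4 reached into the db/db range, and the log2 fold change of 1.06 (SE 0.414) had an edgeR adjusted p of 0.597. Sema4d, the ligand of plexin B1, was at 27.0, 27.1, 63.2 and 67.2 CPM in CT db and 58.4, 108, 78.4 and 75 CPM in db/db. Its CT db libraries fell into a low and a high pair, and the log2 fold change of 0.79 (SE 0.310) had the same edgeR adjusted p of 0.597. Plxna1, a receptor for class 3 and class 6 semaphorins, was at 22.5, 18.7, 23.4 and 22.7 CPM in CT db and 22.6, 31.4, 32.5 and 29.1 CPM in db/db (log2 fold change 0.40, SE 0.175, edgeR adjusted p = 0.646).

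In the ob model, the contrast that led to the family, the values are given without a test for any gene. Of all 12425 genes, edgeR called 0.00% and DESeq2 0.692%, and 8.16% had an unadjusted edgeR p under 0.05. Of the 29 family genes tested, 2 lay wholly lower in ob/ob (Plxna2 and Chn2, background 7.50%) and 3 wholly higher (Sema4d, Sema5a and Sema6c, background 8.20%), and nothing is read from these counts. The median log2 fold change over the 29 genes was 0.10, against -0.04 over all genes. Sema5a was at 188, 243 and 226 CPM in CT ob and 405, 391 and 325 CPM in ob/ob, 1.70-fold higher (log2 fold change 0.76, SE 0.195). In the db model Sema5a ranged more widely within groups, with 285, 890, 617 and 997 CPM in CT db and 392, 702, 631 and 777 CPM in db/db. Sema6c was at 2.68, 1.99 and 3.06 CPM in CT ob and 3.11, 3.32 and 3.57 CPM in ob/ob, so the groups were only just apart (log2 fold change 0.37, SE 0.445).

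**Figure D3:**
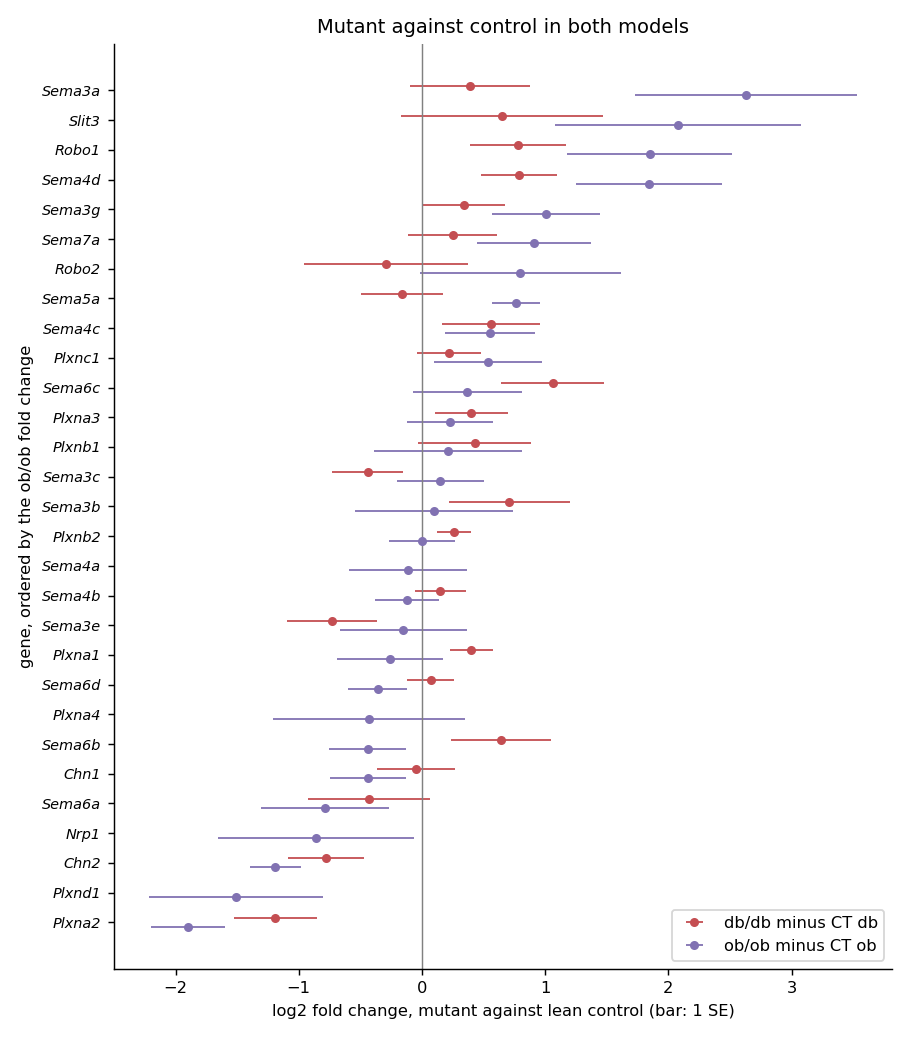
Log2 fold change of mutant against lean control (bar: 1 SE) for the 29 genes tested in the ob model, with the 25 of them tested in the db model beside them, ordered by the ob/ob value. Plxna2 and Chn2 lie below 0 in both models (-1.90 and -1.19 in ob/ob, -1.19 and -0.78 in db/db), while Sema3a, Slit3, Robo1 and Sema4d carry the highest ob/ob values.

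Several high ob/ob values came from 1 library. The ob/ob levels of Sema4d were 24.7, 118 and 27.8 CPM and those of CT ob 13.0, 18.2 and 16.3 CPM, and the log2 fold change was 1.84 (SE 0.592) with all libraries and 0.73 without ob/ob library 2. Robo1, a receptor for Slits, had ob/ob levels of 35.2, 177 and 37.6 CPM and CT ob levels of 15.9, 16.4 and 37.4 CPM, with a log2 fold change of 1.85 (SE 0.671) that was 0.66 without that library. In the db model Robo1 was at 15.8, 24.3, 55.8 and 51.3 CPM in CT db and 49.0, 107, 55 and 41.9 CPM in db/db, and the groups overlapped. Library 2 of ob/ob held the highest value of all 14 for Plxnb1, Plxnc1, Robo1, Sema3a, Sema3g and Sema4d, and the highest of the 3 ob/ob values in 17 of the 29 genes, against 38.2% of all genes tested in the ob model. Sema3a, the secreted cue that binds neuropilin 1, had ob/ob levels of 6.21, 45.0 and 8.74 CPM and CT ob levels of 1.53, 1.74 and 6.80 CPM. Its log2 fold change of 2.63 (SE 0.902) was 1.21 without ob/ob library 2. Sema3g, another secreted class 3 semaphorin, had ob/ob levels of 86.8, 230 and 69.8 CPM and CT ob levels of 51.0, 60.0 and 80.9 CPM, and its log2 fold change of 1.01 (SE 0.439) was 0.29 without the library. It was at 59.4, 55.2, 153 and 95.3 CPM in CT db and 69.9, 152, 146 and 90.6 CPM in db/db, again with a wide spread within each group.

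Single libraries with a high level of Robo2 were found in 3 of the 4 groups. Robo2, a second Slit receptor, was at 87.6 CPM in CT db library 3, 64.5 CPM in db/db library 3 and 59.0 CPM in ob/ob library 2, and at 3.28 to 22.7 CPM in the other 11 libraries. The activin subunit gene Inhba, a marker of the granulosa list, was at 2550, 2050 and 1520 CPM in those 3 libraries and at 24.0 to 751 CPM in the others, and the aromatase gene Cyp19a1 at 106, 105 and 83.6 CPM and at 6.56 to 32.8 CPM. Other genes of the list went the other way. Wt1 was lowest of its group in CT db library 3 (24.2 CPM) and ob/ob library 2 (11.1 CPM), as was Amhr2, the receptor gene for anti-Müllerian hormone (122 and 101 CPM), and Amh was lowest in ob/ob library 2 (58.6 CPM). Robo2 and these markers were picked after their values were seen, and the part of the markers in the Robo2 values was not tested. Sema7a was at 345, 479 and 403 CPM in the 3 libraries. Its other levels were 202, 197 and 251 CPM in CT db, 224, 375 and 110 CPM in db/db, 169 and 185 CPM in ob/ob and 77.0, 220 and 103 in CT ob, so db/db library 2 was also high. Plxnc1, the receptor of Sema7a, was at 208, 263 and 357 CPM in the 3 libraries, and at 106, 167 and 120 CPM in the other CT db libraries, 145, 169 and 127 CPM in those of db/db, 125 and 114 CPM in those of ob/ob and 151, 98.7 and 158 in CT ob. The 3 libraries were thus the highest for this receptor. Slit3, a ligand of Robo1 and Robo2, was highest in db/db library 3 (28.6 CPM) and CT db library 3 (20.9 CPM) but was only 5.95 CPM in ob/ob library 2, below the 15.6 CPM of CT db library 4. CT db libraries 1 and 2 held 1.69 and 0.213 CPM of Slit3, and CT ob 0.575, 2.24 and 0 CPM.

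**Figure D4:**
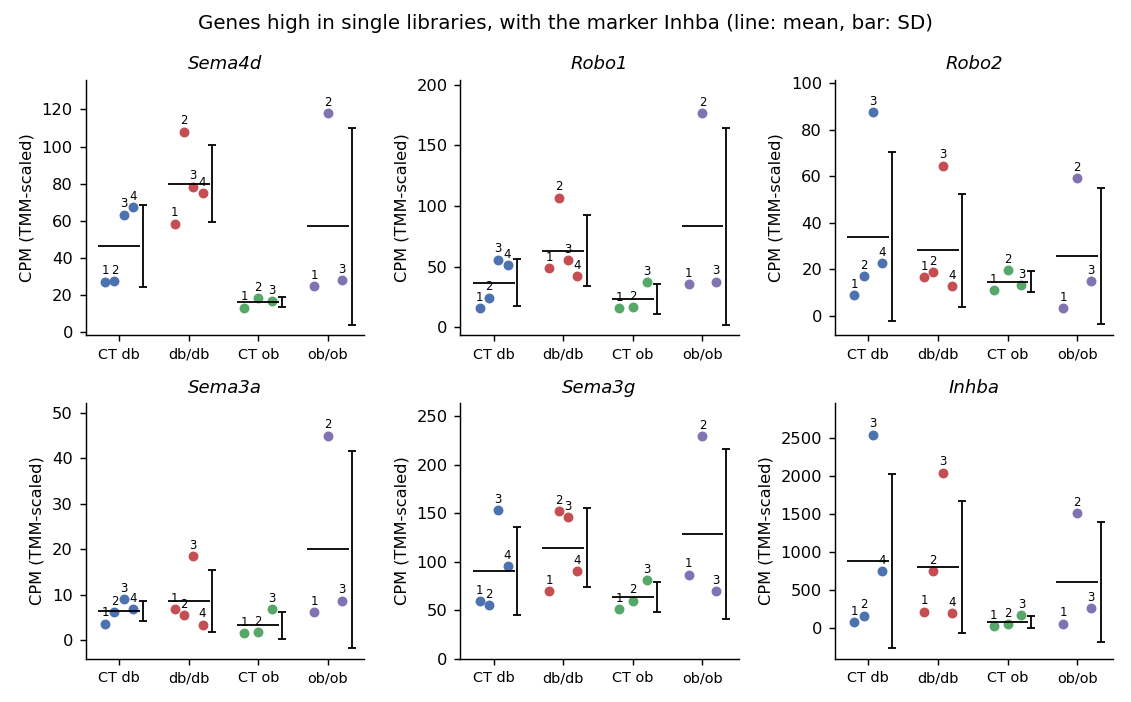
TMM-scaled CPM of Sema4d, Robo1, Robo2, Sema3a, Sema3g and the granulosa marker Inhba in each library of the 4 groups, with library numbers, group means as lines and SD as bars. ob/ob library 2 is the highest of its group in every panel (118, 177, 59.0, 45.0, 230 and 1520 CPM), and CT db library 3 and db/db library 3 are high for Robo2 and Inhba.

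Comparison of the lean control groups asked how far the family differed between the colonies in lean animals. In a fit of all 14 libraries, 4 of the family genes other than Plxna2 and Chn2 passed the edgeR test between CT ob and CT db, with Sema6b, Plxnb2 and Sema6d higher and Sema5a lower in CT ob. The background was 6.63% of 12586 genes called by edgeR (2.24% higher and 4.39% lower), beside 4 of the 28 genes tested without Plxna2 and Chn2, and DESeq2 called 6 of the 28 (background 12.4%). Sema5a averaged 219 ± 28.3 CPM (SD, n = 3) in CT ob and 697 ± 318 CPM (n = 4) in CT db, 3.17-fold lower (log2 fold change -1.67, SE 0.341, edgeR adjusted p = 0.0164). All 3 CT ob values lay below the lowest CT db value of 285 CPM. The same CT ob libraries entered the ob/ob comparison above, so both Sema5a differences share them. Sema5a lies at chr15:32244919-32696487 on the plus strand of GRCm39.

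The receptor Plxnb2 was at 290, 214 and 374 CPM in CT ob and 179, 151, 178 and 177 CPM in CT db (log2 fold change 0.78, SE 0.199, edgeR adjusted p = 0.0346). Sema6b, a class 6 semaphorin that signals through A plexins, was at 13.6, 11.5 and 17.0 CPM in CT ob and 7.32, 5.11, 1.92 and 3 CPM in CT db (log2 fold change 1.68, SE 0.371, edgeR adjusted p = 0.0218). Sema6d, a ligand of plexin A1, was at 58.1, 47.6 and 47.3 CPM in CT ob and 35.7, 29.6, 26.1 and 31.4 CPM in CT db (log2 fold change 0.74, SE 0.210, edgeR adjusted p = 0.0482). In db/db and ob/ob, Sema6d was at 29.4, 34.8, 23.8 and 40.6 CPM and at 52.5, 35.2 and 32.0 CPM. For these 3 genes every CT ob library lay above every CT db library. Without Plxna2 and Chn2, 4 of the 28 genes lay wholly higher in CT ob (background 9.80%), the 3 named here with Plxna4, and 2 lay wholly lower (background 11.4%), Sema5a and Sema4d. Sema4d itself did not pass the edgeR test (log2 fold change -1.54, SE 0.519, adjusted p = 0.0814) but had a DESeq2 adjusted p of 0.0173, and its edgeR adjusted p was 0.0218 without ob/ob library 2. Other annotated genes on the opposite strand share 13.7% of the exon bases of Sema4d, 8.99% of those of Plxnb2, 3.70% of those of Sema6d and 3.09% of those of Sema5a. None of the 4 calls was kept on leaving out CT db library 2 or CT ob library 3, where the edgeR adjusted p of Sema5a was 0.0521 and 0.0626, and the calls over all genes fell there from 834 to 138 and 112. Sema6d lost its call in 13 of 19 alternatives, and without CT ob library 3 the edgeR adjusted p of Plxnb2 was 0.142 (log2 fold change 0.55).

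**Figure D5:**
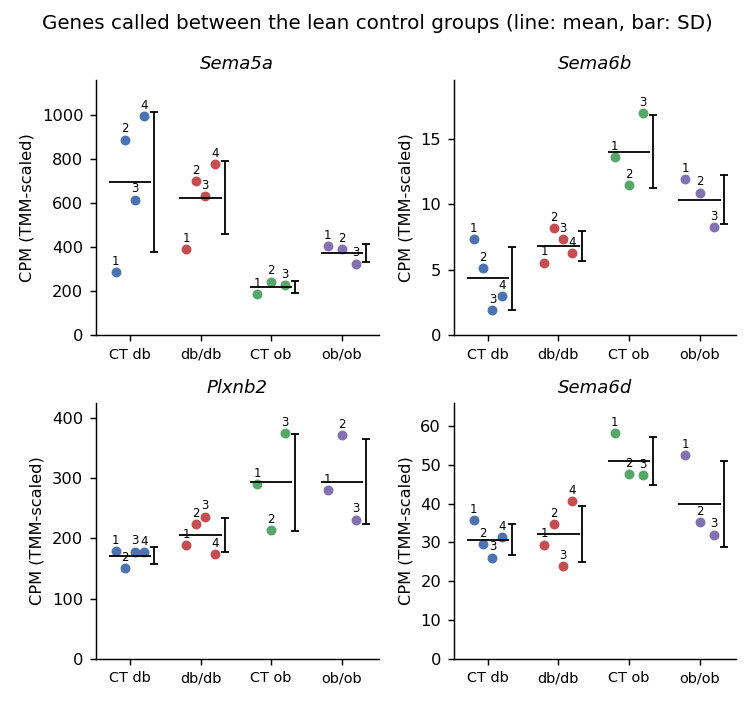
TMM-scaled CPM of Sema5a, Sema6b, Plxnb2 and Sema6d in each library of CT db, db/db, CT ob and ob/ob, with library numbers, group means as lines and SD as bars. CT ob lies apart from CT db in each panel, below it for Sema5a (188 to 243 against 285 to 997 CPM) and above it for the other genes.

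Some marker lists of other cell types differed by value in this comparison. Oocyte markers had a median log2 fold change of 2.22 between CT ob and CT db (9 of 10 genes tested), endothelial markers 1.55 (3 of 9) and stroma and mural markers 0.76 (6 of 9), with 0 genes called in each list. Macrophage and leukocyte markers were at 0.61, luteal markers at 0.52 and theca markers at -0.01, against 0.06 over all genes. The sums of the 2 groups overlapped for oocyte markers (68.3 to 1080 CPM in CT ob, 2.81 to 252 in CT db) and for stroma and mural markers (37.6 to 147 and 32.9 to 60.4). The endothelial marker sums were higher in all 3 CT ob libraries than in the other 11, and Plxnd1, the plexin of endothelium, stood at 1.72, 10.2 and 4.42 CPM in CT ob, 1.71, 3.87, 1.30 and 1.56 CPM in db/db and 1.04, 2.77 and 1.85 CPM in ob/ob. Its CT db libraries held 3.10, 1.70, 2.47 and 1.36 CPM. Nrp1 was also highest in CT ob library 2, with 3.83, 10.5 and 2.04 CPM in CT ob, 1.13, 2.13, 1.37 and 3 CPM in CT db, 2.56, 1.72, 0.433 and 3.75 CPM in db/db and 5, 0.692 and 3.45 CPM in ob/ob. Robo4 was at 4.48 CPM in CT ob library 2 and at most 0.937 CPM elsewhere. Kdr, an endothelial VEGF receptor gene, was at 17.4, 8.22 and 2.38 CPM in CT ob and at most 2.22 CPM elsewhere. Kdr thus held 17.4 of the 28.2 CPM of endothelial markers in CT ob library 1, and Egfl7 held 13.9 of the 24.8 CPM in library 3. Of the 9 endothelial markers, Cdh5, Cldn5, Emcn and Erg did not have their highest group median in CT ob. Cdh5 was at 0.192, 4.24 and 0.34 CPM in CT ob and 0 to 4.69 CPM elsewhere. Of the 14 granulosa markers edgeR called 2 between the controls, both lower in CT ob (background 4.39% of all genes lower, 2.24% higher). They were Gja1 (log2 fold change -1.47, SE 0.190, edgeR adjusted p = 0.00221) and Fshr (-1.72, SE 0.349, adjusted p = 0.0163). The median log2 fold change of the list was -0.43, while Foxl2, Amh, Amhr2, Wt1 and Hsd17b1 had a higher group median in CT ob than in CT db. The part of these markers in the differences of Sema5a, Sema6b, Plxnb2 and Sema6d was not tested.

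Between the mutants no gene of the family passed the test. edgeR called 0 of 28 genes between ob/ob and db/db (background 0.0159%) and DESeq2 also 0 (background 0.572%), while 3 of the 28 had an unadjusted edgeR p under 0.05 (background 8.18%). Plxnb2 was at 280, 371 and 231 CPM in ob/ob and 189, 223, 236 and 174 CPM in db/db (log2 fold change 0.52, SE 0.199, edgeR adjusted p = 0.462). The ob/ob and db/db libraries overlapped only through ob/ob library 3 and db/db library 3. Sema5a (log2 fold change -0.74, SE 0.329, adjusted p = 0.571) and Sema6c (-0.96, SE 0.415, adjusted p = 0.552) were lower in ob/ob by value in this edgeR fit. Sema6b lay wholly higher in ob/ob, at 11.9, 10.9 and 8.25 CPM against 5.54, 8.17, 7.36 and 6.25 CPM in db/db (1 such gene without Plxna2 and Chn2, background 5.53%), without passing the test (log2 fold change 0.60, SE 0.368, adjusted p = 0.780). Slit3 lay wholly lower, at 5.69, 5.95 and 0.985 CPM against 6.82, 12, 28.6 and 12.5 CPM (1 gene, background 4.38%), also without passing it (log2 fold change -1.83, SE 1, adjusted p = 0.721).

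The interaction, which compares the mutant effect of the ob model with that of the db model, called 0 of 28 genes by edgeR (background 0.00%) and 0 by DESeq2 (background 0.572%). At an unadjusted edgeR p under 0.05 there was 1 gene, Sema3a (background 8.11%), with a log2 difference of 2.24 (SE 1.05, adjusted p = 0.608) that was 0.81 without ob/ob library 2, and DESeq2 gave no adjusted p for it. Different mutant effects in the models were therefore not shown for any gene of the family at this number of libraries, and a p that misses the threshold does not show that the effects were alike.

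The remaining family genes were described by their range. Sema4b, the highest class 4 semaphorin per kb of exon but not per kb of the canonical transcript, was at 27.0, 26.8, 45.9 and 42.3 CPM in CT db, 44.8, 33.5, 36.8 and 42.2 CPM in db/db, 26.4, 44.6 and 29.8 CPM in ob/ob and 43.9, 33.4 and 32.0 in CT ob, with overlap between all groups. Sema3c, the class 3 gene with the most CPM, ranged from 95.9 to 342 CPM, and Sema4c from 7.60 to 34.6 CPM. Sema3b ranged from 3.64 to 36.9 CPM and Sema3e, which can bind plexin D1 without a neuropilin, from 4.69 to 20.9 CPM. Among the receptors and effectors, Plxna3 ranged from 7.10 to 18.0 CPM, Plxnb1 from 3.38 to 23.4 CPM and Chn1, the α-chimaerin gene, from 8.74 to 21.5 CPM. Sema4a, Sema6a and Plxna4 stayed at or below 8.53 CPM, and Slit1, Slit2, Sema3d, Sema4g, Sema5b and Plxnb3 at or below 6.87 CPM. The last 6 were too low to be tested in any comparison, as were Sema4a and Plxna4 in the db model. For the others edgeR gave no adjusted p of 0.05 or less in the comparisons where they were tested.

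Genes that act around the family were counted from lists. In db/db against CT db, ob/ob against CT ob, ob/ob against db/db and the interaction, edgeR called 0 of the co-receptors and plexin effectors, Slit-Robo effectors, netrins and netrin receptors, ephrins and Eph receptors, and diacylglycerol signalling genes. Between the control groups, 2 of 32 co-receptors and plexin effectors were higher in CT ob, 3 of 15 Slit-Robo effectors were higher and 1 lower, 1 of 8 netrin genes was higher, and 0 of 11 ephrin genes and 0 of 16 diacylglycerol genes were called, beside 2.24% of all genes higher and 4.39% lower. Dag1, the dystroglycan gene whose product binds Slits, was at 717 to 967 CPM in CT ob and 296 to 441 CPM in CT db (log2 fold change 1.19, SE 0.184, edgeR adjusted p = 0.00658). Erbb2, a kinase that pairs with B plexins, was 3.15-fold higher in CT ob (adjusted p = 0.00668), Cdk5, a kinase below class 3 semaphorins, 2.03-fold higher (0.0144), and the glypican gene Gpc1 3.28-fold higher (0.0251). Unc5b, a netrin receptor gene, was at 4.73 to 18.4 CPM in CT ob and 0.213 to 1.41 CPM in CT db (adjusted p = 0.00668). Cdc42, a GTPase restrained by Robo signalling, was 1.48-fold lower in CT ob (adjusted p = 0.0352). The third Slit-Robo effector that was higher, Arhgap39, was 1.72-fold higher (edgeR adjusted p = 0.043) and is named after its value was seen.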

How the data were processed

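Raw counts per gene in 14 libraries were deposited by the authors as 1 table. Per the methods, reads were trimmed with cutadapt, mapped with STAR to GRCm39 and counted with featureCounts, whereas the submitters' processing notes name Trim Galore 0.6.2, HISAT2 2.1.0 and GRCm38, and which made the counts was not settled. Reads were amplified without molecular identifiers. Columns were assigned to groups by name, with no replicate number. Symbols and exon lengths came from GENCODE vM39 (54749 of 55414 identifiers matched). The genes and lists were chosen with earlier results of these data known. Each model was fitted on its own, and the other comparisons on all 14 libraries, by the quasi-likelihood test of edgeR 4.0.16 (TMM scaling, filterByExpr with a minimum count of 10 and total of 15, Benjamini-Hochberg adjustment over all genes tested, threshold 0.05), with DESeq2 1.42.0 as an alternative. Each SE is the absolute log2 fold change divided by the square root of the F statistic of the edgeR fit. Scripts were tested on simulated counts. Values in every library were given for Plxna2, Chn2, genes called, the 3 smallest p in the db model, genes whose mutant and control libraries did not overlap and the highest gene per length in each family, and from the pathway lists at most 6 called genes per comparison were named by smallest p. Other scalings, filters and left-out libraries were tried.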

Additional observations from a re-analysis of the deposited data

Results flagged for a closer look

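Among the 25 genes of the family tested in the db model, the lowest or highest library of a group of 4 stood far from the other 3 in 3 of 50 gene and group pairs by Dixon's 95% criterion, which chance meets in about 1 of 20 groups. Plxnb2 was at 151 CPM in CT db library 2, with the other CT db libraries between 177 and 179 CPM. Robo2 was at 64.5 CPM in db/db library 3, against 12.8 to 18.9 CPM in the other db/db libraries. Sema6c was at 4.91 CPM in CT db library 4, against 2.47 to 2.56 CPM in the other CT db libraries.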

How the results depend on the processing

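No paired analysis was possible because the columns of the count table carry no replicate number of the labels. Without a filter on low counts, edgeR called 4 family genes in the db model (Plxna2, Chn2, Sema4d and Robo1), 11 between the controls, 1 between the mutants and 2 in the interaction (Plxna2 and Chn2 not counted in the last 3). Over all genes it then called 270 of 28505 in the db model and 359 of 32006 in the ob model. Of 34753 genes it called 1727 between the controls, 535 between the mutants and 329 in the interaction. The filter left 11317 genes in the db model, 12425 in the ob model and 12586 in the others. With it edgeR called 1, 0, 834, 2 and 0 genes in these comparisons and DESeq2 44, 86, 1563, 72 and 72. In the ob model DESeq2 called 3 in that model alone (Plxna2, Chn2 and Sema5a) and 3 with all 14 libraries in 1 fit, chosen after seeing the data (Plxna2, Chn2 and Sema4d). The ob counts, with the 7 family genes that edgeR called there without a filter, describe the contrast that the genes were chosen by and support nothing. Leaving out 1 library gave 0 to 4 calls between the controls (0 without CT db library 2 or CT ob library 3, 1 without CT db library 4 or CT ob library 1, 2 without CT db library 3), while calls over all genes fell from 834 to 138, 112, 201, 376 and 482 in that order, and 0 in the other comparisons. Genes detected in all libraries numbered 20 to 28 and those in none 0 to 5 across the floors tried. The highest 10 genes per length were the same 10 per canonical transcript, in another order, with Sema4d at 11 in place of 3.86 CPM per kb. Across 449 pairs of 28 fold changes and the settings tried, the sign changed in 0. A call was lost in 24 (13 of them Sema6d) and gained in 8. In another 7, all in ob/ob against CT ob and without a test, the value moved by more than 1 SE. Sema6b was not tested under the stricter filter. The causes were not tested. At these depths genes under about 1 CPM rest on a few counts.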
